A study of Mus musculus with 12 samples.

Results

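The Nodal pathway was followed through 7 genes: the ligands Nodal and Gdf3, the co-receptor Tdgf1, the receptor Acvr2b, the nuclear partner Foxh1 and the feedback inhibitors Lefty1 and Lefty2. They were taken by gene symbol from the annotation of the array, and all 7 were among the 13067 genes tested. The rule names them by symbol and uses no measured value, but the genes were chosen with earlier results of these data known. The array carried 13 probe sets for these genes, and the probe set with the highest mean over the 12 arrays stood for each gene.

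RNA of D3 cells, a mouse embryonic stem (ES) cell line, was hybridised to 12 Affymetrix arrays in 4 groups of 3. The groups were NP day8 (agent NP, day 8), BPA day8 (agent BPA, day 8), control day8 (no agent, day 8) and control day0 (no agent, day 0). All cells had been kept on feeder layers of MMC-treated mouse fibroblasts of embryonic origin, and differentiation was through embryo bodies (embryoid bodies), aggregates in which stem cells give rise to many cell types. The names of the agents are not written out in the labels and no dose is given. Nothing in the labels tells whether replicates came from separate cultures, so a p-value here measures the spread between these arrays only, which may be technical. Values are deposited log2 signals, on which a difference of 1 is a doubling of signal. A gene is said to have risen or fallen where its p-value in limma, adjusted over all genes tested, was under 0.05. A background level of 3.41 on the log2 scale was set by the highest of 36 values of bacterial control probe sets.

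Nodal is a secreted signal of the TGF-beta superfamily that patterns the early mouse embryo and directs cells to mesoderm and endoderm. It binds activin receptors together with an EGF-CFC co-receptor, and the receptors phosphorylate Smad2 and Smad3, which enter the nucleus with Smad4 and act on target genes with Foxh1. Nodal and the Lefty genes are themselves targets of this signal, and Lefty proteins block Nodal outside the cell, which closes a feedback loop. In mouse ES cells the pathway is active while the cells are undifferentiated.

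Without an agent, Nodal, Gdf3, Tdgf1, Lefty1 and Lefty2 fell strongly between day 0 and day 8, Foxh1 fell slightly and Acvr2b rose slightly. With BPA or NP the first 5 of these genes were 3.34-fold to 9.54-fold higher at day 8 than without an agent, and the Lefty genes stayed well below their day 0 level. In control day8 against control day0, 6 of the 7 genes fell and 1 rose, while 20.5% of all genes tested fell and 28.3% rose. In BPA day8 against control day8, 5 of 7 rose and none fell, while 12% of all genes rose and 10.2% fell. In NP day8 against control day8, 5 of 7 rose and none fell, while 7.9% of all genes rose and 6.28% fell. At an unadjusted p under 0.05 in limma, 6 were higher and 1 lower with BPA, and 6 were higher and 0 lower with NP. The median change of the 7 genes was -3.93, 2.13 and 2.58 on the log2 scale in these comparisons in turn, beside 0.12, 0.04 and 0.01 over all genes tested. Both agents were compared with the same control day8 arrays, and those also entered the comparison of days, so the 3 results are not independent.

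**Figure D1:**
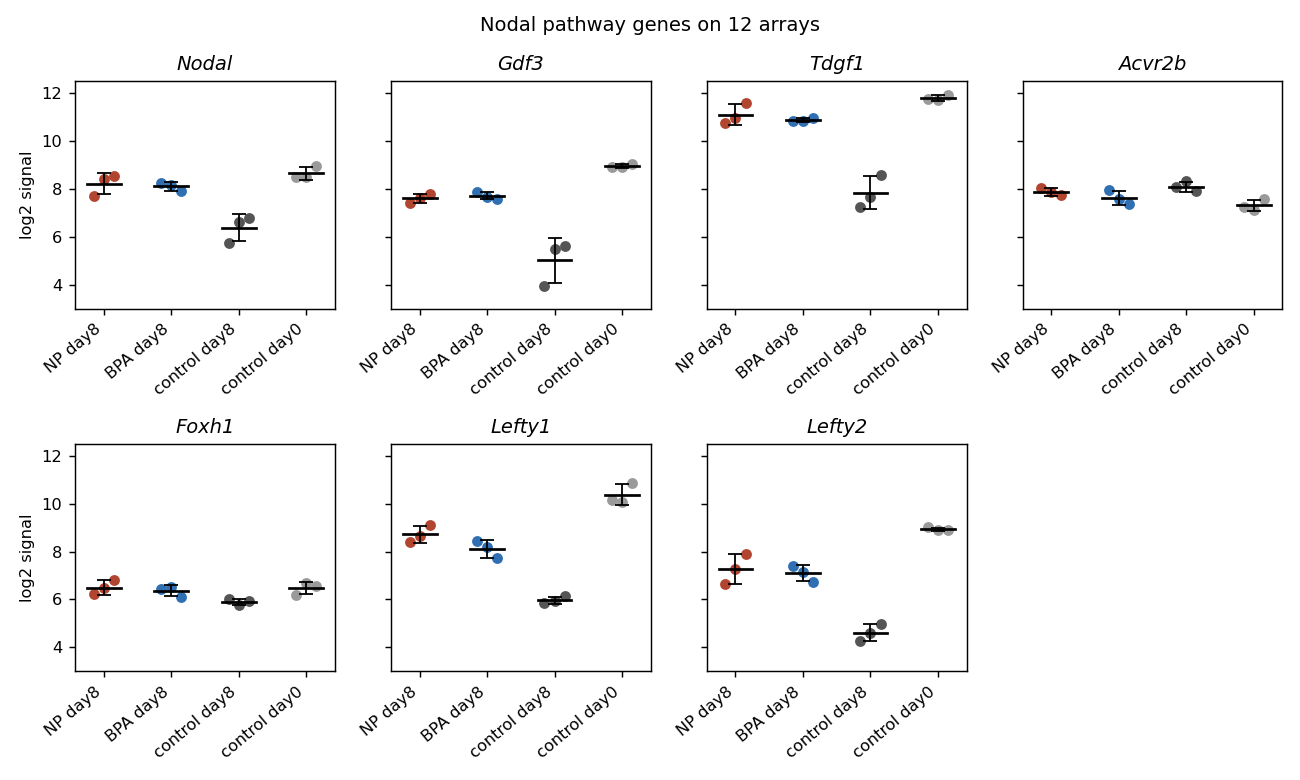
Log2 signal of each of the 7 genes (vertical axis) on the 3 arrays of each group (horizontal axis); points are arrays, the wide bar is the group mean and the whiskers are 1 SD. In Nodal, Gdf3, Tdgf1, Lefty1 and Lefty2 all 3 control day8 arrays lie below every array of the other groups.

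The promoters of the ligand Nodal and the co-receptor Tdgf1, which fell and rose together below, are shown as the 250 bases before the start of each gene, from RefSeq on GRCm38.p6. Promoter entries were found for 3 of the 7 genes, Nodal, Tdgf1 and Acvr2b. They were searched on both strands for the FOXH1 motif AATNCACA and the Smad box CAGAC, 2 motifs of the proteins that carry the Nodal signal, neither of which contains the other. Capitals mark a Smad box. The Nodal window lies on the plus strand at chr10:61417722-61417971 and the Tdgf1 window on the minus strand at chr9:110946159-110946408.
Nodal: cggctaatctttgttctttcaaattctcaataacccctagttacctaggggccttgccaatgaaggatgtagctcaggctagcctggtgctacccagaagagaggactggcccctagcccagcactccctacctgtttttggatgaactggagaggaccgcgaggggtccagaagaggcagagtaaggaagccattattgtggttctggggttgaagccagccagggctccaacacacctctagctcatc
Tdgf1: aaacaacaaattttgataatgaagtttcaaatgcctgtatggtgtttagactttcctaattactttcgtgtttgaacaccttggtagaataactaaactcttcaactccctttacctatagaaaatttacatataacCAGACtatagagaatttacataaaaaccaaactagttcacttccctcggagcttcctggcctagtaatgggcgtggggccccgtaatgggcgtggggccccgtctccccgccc
The Nodal window held neither motif and had a GC content of 53.2%, beside a median of 52.4% over all 32851 windows. The Tdgf1 window had a GC content of 42% and 1 Smad box, 113 bases before the start. Within it the 19-base stretch gtaatgggcgtggggcccc occurred 2 times in a row, beginning 50 and 31 bases before the start. The Acvr2b window had a GC content of 72.8% and 1 Smad box. Of all windows, 42.2% held a Smad box and 3.18% held the FOXH1 motif, so these matches describe the letters and locate no binding site.

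Nodal, the ligand that gives the pathway its name, had log2 signals of 7.72, 8.42 and 8.52 on the NP day8 arrays and 8.26, 8.14 and 7.91 on the BPA day8 arrays. It had 5.72, 6.60 and 6.78 on the control day8 arrays and 8.50, 8.47 and 8.96 on the control day0 arrays. The control day8 arrays were the lowest of the 12 and overlapped with no other group, while the NP day8 arrays overlapped with both BPA day8 and control day0. Control day8 lay 2.28 ± 0.30 below control day0 on the log2 scale (SE; adjusted p = 0.000229), a 4.86-fold lower signal. Against control day8, Nodal was 3.34-fold higher with BPA (1.74 ± 0.30, adjusted p = 0.00388) and 3.61-fold higher with NP (1.85 ± 0.30, adjusted p = 0.00496). A second Nodal probe set had 5.16, 5.22 and 5.22 with NP, 4.38, 5.23 and 4.23 with BPA, 1.20, 4.36 and 4.78 on control day8 and 5.54, 5.46 and 6.38 on control day0. Its lowest array, control day8 replicate 1, lay under background. In a fit over all probe sets it differed in the same directions without passing the test, by -2.34 between days (adjusted p = 0.0807), 1.17 with BPA (adjusted p = 0.517) and 1.75 with NP (adjusted p = 0.375). With that array set to background these differences were -1.61, 0.43 and 1.01. Where the mean of both probe sets, or the more variable one, stood for Nodal, the rise with BPA and with NP no longer passed the test (adjusted p up to 0.381 and 0.239).

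Gdf3, a ligand of the same superfamily that is made by pluripotent cells, had log2 signals of 7.39, 7.64 and 7.79 with NP, 7.86, 7.68 and 7.57 with BPA, 3.94, 5.50 and 5.61 on control day8 and 8.89, 8.92 and 9.04 on control day0. The 2 control groups did not overlap with each other or with the treated arrays, and the treated arrays lay between them. One control day8 array, replicate 1, stood well below the other 2. Gdf3 fell by 3.93 ± 0.37 between days (15.2-fold, adjusted p = 3.36e-05) and was higher than in control day8 by 2.68 ± 0.37 with BPA (adjusted p = 0.00131) and by 2.58 ± 0.37 with NP (adjusted p = 0.00274). Its second probe set passed the test in the same directions in all 3 comparisons (adjusted p = 0.000146, 0.00647 and 0.0148). Its control day8 replicates 1 and 2 lay under background, and with these set to background the differences were -3.49 between days, 2.06 with BPA and 1.91 with NP.

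Tdgf1, also called Cripto, is the EGF-CFC co-receptor that Nodal needs to signal through activin receptors and a marker of undifferentiated cells. Its log2 signals were 10.73, 10.97 and 11.57 with NP, 10.83, 10.83 and 10.95 with BPA, 7.25, 7.67 and 8.60 on control day8 and 11.74, 11.71 and 11.91 on control day0. Every treated array stood above the highest control day8 array, by a wide gap, and below the lowest control day0 array. The fall between days was 3.95 ± 0.31 (15.4-fold, adjusted p = 1.56e-05). Against control day8 the signal was 8.17-fold higher with BPA (3.03 ± 0.31, adjusted p = 0.000423) and 9.54-fold higher with NP (3.25 ± 0.31, adjusted p = 0.000638), the largest change of the 7 genes with each agent. The gene has 1 probe set, and RefSeq lists 2 pseudogenes of it, Tdgf1-ps1 and Tdgf1-ps2, whose transcripts the probe set may not tell apart from it.

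Acvr2b, a type II receptor that binds activins and Nodal, was the only one of the 7 genes with its highest mean in control day8. Its log2 signals were 8.05, 7.87 and 7.72 with NP, 7.95, 7.59 and 7.36 with BPA, 8.06, 8.31 and 7.90 on control day8 and 7.23, 7.12 and 7.56 on control day0. The control groups did not overlap, while the treated arrays of both agents overlapped with control day8. It rose by 0.79 ± 0.18 between days (1.72-fold, adjusted p = 0.00595). The difference from control day8 was -0.45 ± 0.18 with BPA (95% interval -0.87 to -0.04, adjusted p = 0.107) and -0.21 ± 0.18 with NP (-0.62 to 0.21, adjusted p = 0.509), and neither passed the test. In the limma fit over all probe sets without the filter, a second probe set differed by 0.86 between days (adjusted p = 0.158, beside 0.0309 for the probe set above). The third lay under background on all 12 arrays.

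Foxh1, the DNA-binding partner of Smad2 and Smad3 at Nodal targets, changed least of the genes that fell. Its log2 signals were 6.21, 6.47 and 6.80 with NP, 6.45, 6.54 and 6.12 with BPA, 6.01, 5.77 and 5.92 on control day8 and 6.20, 6.70 and 6.55 on control day0. The control day8 arrays were again the lowest of the 12, though the gap to the next array was small. Foxh1 fell by 0.58 ± 0.19 between days (adjusted p = 0.0277), a call lost in 6 of 26 alternative settings, 4 of which left out 1 array (control day0 replicate 2 or 3, control day8 replicate 2 or 3; adjusted p over all settings up to 0.386). The differences from control day8 of 0.47 ± 0.19 with BPA (adjusted p = 0.104) and 0.60 ± 0.19 with NP (adjusted p = 0.0652) did not pass the test, although the arrays did not overlap. With NP the difference passed in 5 of the 26 settings (adjusted p down to 0.0392). In the limma fit over all probe sets without the filter, the fall of the probe set above did not pass either (adjusted p = 0.101). In that fit a second probe set differed by -0.41 between days (adjusted p = 0.516). Against control day8 it differed by 0.30 with BPA (adjusted p = 0.728) and by 0.13 with NP (adjusted p = 0.914), with overlap of the arrays in both. The third lay under background on 11 of 12 arrays.

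The Lefty genes encode secreted antagonists of Nodal and are induced by it. Lefty1 had log2 signals of 8.39, 8.66 and 9.11 with NP, 8.42, 8.18 and 7.72 with BPA, 5.84, 5.94 and 6.13 on control day8 and 10.17, 10.07 and 10.86 on control day0. The treated arrays filled the space between the control groups without touching either, and NP and BPA arrays overlapped by a narrow margin. Lefty1 had the largest fall of the 7 genes between days, 4.40 ± 0.27 (21.0-fold, adjusted p = 5.56e-06). It was higher than in control day8 by 2.13 ± 0.27 with BPA (4.39-fold, adjusted p = 0.000823) and by 2.75 ± 0.27 with NP (6.73-fold, adjusted p = 0.000638).

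Lefty2 had log2 signals of 6.66, 7.27 and 7.91 with NP, 7.39, 7.14 and 6.73 with BPA, 4.24, 4.61 and 4.96 on control day8 and 9.01, 8.90 and 8.90 on control day0. Again the treated arrays lay between the control groups with no overlap on either side. Its fall between days was 4.33 ± 0.30 (20.2-fold, adjusted p = 9.08e-06), and its rise was 2.49 ± 0.30 with BPA (5.60-fold, adjusted p = 0.000778) and 2.68 ± 0.30 with NP (6.40-fold, adjusted p = 0.00109). Lefty1 and Lefty2 are close relatives with 1 probe set each, so signal shared between them may enter both values. The calls of Gdf3, Tdgf1, Lefty1 and Lefty2 in these 3 comparisons passed the test in all 26 alternative settings.

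**Figure D2:**
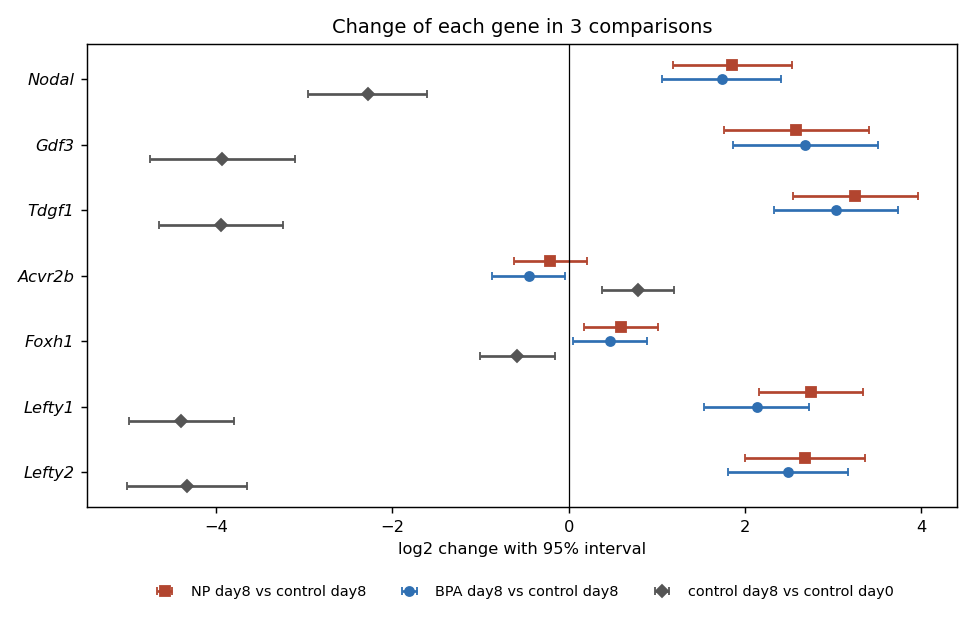
Log2 change of each of the 7 genes (horizontal axis, with 95% intervals) in NP day8 against control day8 (squares), BPA day8 against control day8 (circles) and control day8 against control day0 (diamonds). The intervals of Nodal, Gdf3, Tdgf1, Lefty1 and Lefty2 lie right of 0 with both agents and left of 0 between days, and Acvr2b is the single gene that rose between days.

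**Figure D3:**
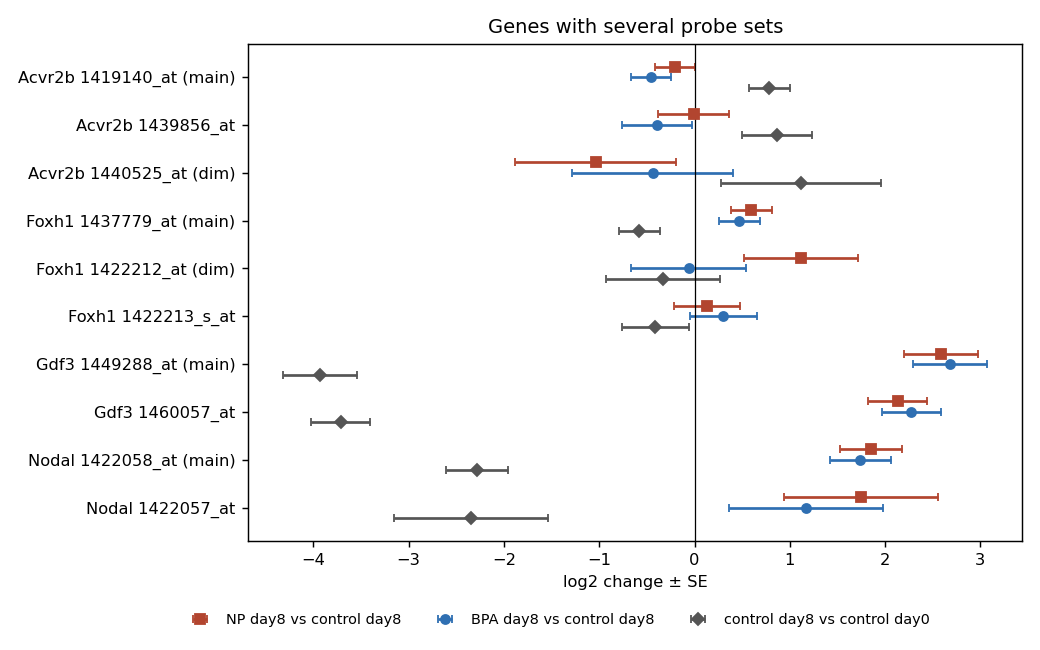
Log2 change ± SE (horizontal axis) of every probe set of the 4 genes with more than 1 probe set, in a fit over all probe sets, in the same 3 comparisons; "dim" marks probe sets that failed the filter on low signal. Both Gdf3 probe sets passed the test in the same directions, while the second Nodal probe set had a wider error, with an adjusted p of 0.0807 between days.

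At day 8, arrays of a group varied together across most of these genes. Acvr2b went otherwise, lowest on replicate 3 in control day8 and with NP. On control day0, replicate 3 was highest for Nodal, Gdf3, Tdgf1, Acvr2b and Lefty1 and lowest for Lefty2. Control day8 replicate 1 was the lowest and replicate 3 the highest of its group for Nodal, Gdf3, Tdgf1, Lefty1 and Lefty2. The same held for NP replicate 1 and replicate 3, for these 5 genes and for Foxh1. On the BPA arrays, replicate 3 was lowest for 6 of the 7 genes, all but Tdgf1. The mean log2 signal of 9 ES cell markers followed the same order in control day8, with 7.54 on replicate 1, 8.01 on replicate 2 and 8.34 on replicate 3, and with NP, with 9.52, 9.86 and 9.92. With BPA it was 9.93 on replicate 1, 9.94 on replicate 2 and highest on replicate 3, with an SD of 0.04, so there the order differed from that of the Nodal pathway genes.

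None of the 7 genes differed between the agents in NP day8 against BPA day8, where limma called 1 gene of all those tested higher (0.00765%) and none lower (0%). At an unadjusted p under 0.05 there was 1 of the 7, Lefty1, which was higher with NP by 0.62 ± 0.27 (95% interval 0.02 to 1.21, unadjusted p = 0.0437, adjusted p = 0.588). The intervals of the other genes give the range within which a difference could lie. They ran from -0.56 to 0.79 for Nodal, from -0.92 to 0.72 for Gdf3, from -0.48 to 0.93 for Tdgf1 and from -0.49 to 0.88 for Lefty2. Those of Acvr2b and Foxh1 were narrower, from -0.17 to 0.66 and from -0.29 to 0.55. Differences inside these intervals remain possible, and the median over the 7 genes was 0.19, beside -0.02 over all genes tested.

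Set against control day0, the treated arrays differed by the largest amounts in Lefty1 and Lefty2. With BPA 4 of the 7 genes were lower than at day 0 and none was higher, while 11.9% of all genes were lower and 21.7% higher; at an unadjusted p under 0.05 the counts were again 4 and 0. With NP 3 were lower and 1 higher, while 11.9% of all genes were lower and 20.2% higher. Both comparisons share the control day0 arrays. Lefty1 was lower by 2.26 ± 0.27 with BPA (4.79-fold, adjusted p = 0.000277) and by 1.65 ± 0.27 with NP (3.13-fold, adjusted p = 0.00158), and Lefty2 by 1.85 ± 0.30 (3.60-fold, adjusted p = 0.00166) and 1.66 ± 0.30 (3.15-fold, adjusted p = 0.00313).

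Gdf3 was lower than at day 0 by 1.24 ± 0.37 with BPA (adjusted p = 0.0272) and by 1.34 ± 0.37 with NP (adjusted p = 0.0199). Tdgf1 was lower by 0.92 ± 0.31 with BPA (adjusted p = 0.0485), a call lost in 14 of 26 settings (without any 1 of the control day0 or BPA arrays, control day8 replicate 2 or NP replicate 1 or 2, among others; adjusted p up to 0.111), and its difference of -0.69 ± 0.31 with NP did not pass the test (adjusted p = 0.124). The Gdf3 call with BPA was lost without any 1 of the control day0 or BPA arrays (to an adjusted p of at most 0.0783), and with NP without control day0 replicate 2 or 3 or NP replicate 1 or 2 (up to 0.0676). In the limma fit over all probe sets, the second Gdf3 probe set differed by -1.44 with BPA (adjusted p = 0.0221) and -1.58 with NP (adjusted p = 0.016). The probe set with the highest mean did not pass in that fit (adjusted p = 0.085 with BPA and 0.068 with NP). Acvr2b was higher with NP by 0.58 ± 0.18 (adjusted p = 0.0375), a call lost in 13 settings (without control day0 replicate 1 or 2, control day8 replicate 1, BPA replicate 2 or NP replicate 1 or 2, among others; adjusted p up to 0.122). Nodal did not pass the test with either agent, with -0.54 ± 0.30 for BPA (95% interval -1.22 to 0.13) and -0.43 ± 0.30 for NP (-1.10 to 0.25). Foxh1 differed by -0.11 with BPA and 0.01 with NP (adjusted p = 0.682 and 0.964), and the sign of the second changed with the scaling of the arrays.

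Expressed as a share of the distance between the control groups, with control day8 at 0% and control day0 at 100%, Nodal stood at 81.3% with NP and 76.3% with BPA, and Tdgf1 at 82.4% and 76.8%. Gdf3 stood at 65.8% with NP and 68.3% with BPA. Lefty2 stood at 61.8% and 57.3%, and Lefty1 at 62.6% and 48.6%. In these means the ligand Nodal and its co-receptor lay nearer to day 0 than the inhibitors did. For Nodal this rests on the probe set with the highest mean. With BPA the second Nodal probe set differed by 1.17 from control day8 and by -1.18 from control day0. With NP it differed by 1.75 and -0.60. With its control day8 array under background set to background, the differences from control day8 were 0.43 with BPA and 1.01 with NP. Acvr2b and Foxh1, whose control groups lay close together, stood at 26.4% and 102.4% with NP and at 57.8% and 80.6% with BPA, and these shares rest on small distances.

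The change of the other members was also set against the change of Nodal on the same array, a contrast taken up after the values had been seen. Only the Nodal probe set with the highest mean entered it. Against control day0 that probe set differed by -0.54 with BPA and -0.43 with NP. The second Nodal probe set differed by -1.18 and -0.60, so the size of the differences below depends on the probe set, most of all with BPA. In control day8 against control day0, Lefty1 minus Nodal differed by -2.11 on the log2 scale and Lefty2 minus Nodal by -2.05. Against control day0, Lefty1 minus Nodal differed by -1.22 with NP and -1.72 with BPA, and Lefty2 minus Nodal by -1.23 with NP and -1.31 with BPA. For Gdf3 minus Nodal the differences were -1.65 between days, -0.92 with NP and -0.70 with BPA against control day0, and for Tdgf1 minus Nodal -1.67 between days. In these 10 differences the 3 arrays of each group did not overlap, and the exact permutation test, 2-sided, gave p = 0.1, the smallest it can give for 3 arrays against 3 (0.138 adjusted over 36 such tests). With 3 arrays a group this test cannot pass a threshold of 0.05. With the agents, Tdgf1 minus Nodal differed from control day0 by -0.27 with NP and -0.38 with BPA, and the arrays overlapped (exact permutation p = 0.3 and 0.2). In NP day8 against BPA day8, Lefty1 minus Nodal was higher by 0.50 without overlap (exact permutation p = 0.1), and Lefty2 minus Nodal by 0.08 with overlap (exact permutation p = 0.8).

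**Figure D4:**
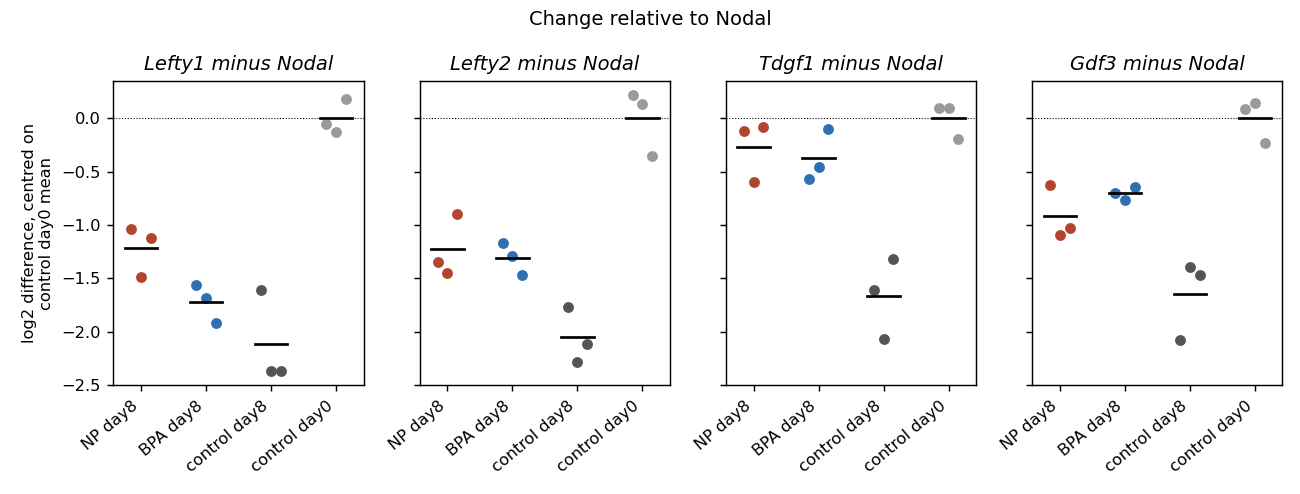
Log2 signal of Lefty1, Lefty2, Tdgf1 and Gdf3 minus that of Nodal on the same array (vertical axis, centred on the control day0 mean) by group. Points are arrays and bars are group means. Nodal is its probe set with the highest mean. For both Lefty genes and Gdf3 all treated arrays lie below control day0, with means between -0.70 and -1.72, whereas Tdgf1 with NP and BPA overlaps with control day0.

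ES cell markers moved in the same directions as the ligands, co-receptor and inhibitors. Of 10 markers 9 were measured, all but Tdh, and all 9 fell in control day8 against control day0 and rose with each agent against control day8. With each agent 4 of 9 were lower than at day 0. Of all genes tested, 20.5% fell between days, and 12% rose with BPA and 7.9% with NP against control day8. With each agent 11.9% of all genes were lower than at day 0. Pou5f1, a core pluripotency factor, had means of 10.48 ± 0.51 with NP, 10.56 ± 0.03 with BPA, 7.64 ± 0.84 on control day8 and 11.45 ± 0.11 on control day0 (SD, n = 3 each). Nanog, another such factor, had 10.30 ± 0.18, 10.41 ± 0.20, 7.98 ± 0.66 and 10.78 ± 0.13. The summed signal of the 9 markers ranged from 15081 to 19330 with NP, from 18586 to 19514 with BPA, from 3392 to 6746 on control day8 and from 25278 to 25494 on control day0. In bulk RNA of this kind, fewer cells of a type and less RNA per cell cannot be told apart.

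Relative to the mean of those markers on the same array, Nodal overlapped between the groups in all 6 comparisons. Its difference was 0.34 between days, -0.26 with BPA and 0.05 with NP against control day8 (exact permutation p = 0.2, 0.3 and 0.7). Tdgf1 minus the markers differed by -1.33 between days, 1.03 with BPA and 1.45 with NP. Lefty1 minus the markers differed by -1.78 between days, by 0.14 with BPA, with overlap (exact permutation p = 0.8), and by 0.95 with NP. Lefty2 gave -1.71, 0.49 and 0.87, and Gdf3 -1.31, 0.69 and 0.78. All of these but the Lefty1 value with BPA were without overlap and had p = 0.1 in the exact permutation test, 2-sided, the smallest possible with 3 arrays against 3, among 42 such tests. Between the agents, Lefty1 relative to the markers was 0.81 higher in NP day8 than in BPA day8, and Tdgf1 0.41 higher, both without overlap.

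Markers of other cells moved as well, and their part in these results was not tested. For the counts below, 10.2% of all genes tested fell with BPA and 6.28% with NP against control day8. Between days 28.3% of all genes rose and 20.5% fell. Of 10 feeder fibroblast markers, 9 were measured, and 7 of the 9 fell with each agent against control day8. Their summed signal ranged from 496 to 795 with NP, from 574 to 733 with BPA, from 5573 to 8589 on control day8 and from 6002 to 7605 on control day0. Between days the list did not move as one: 3 of the 9 rose (Col3a1, Postn and Lum) and 5 fell (Thy1, S100a4, Col1a2, Dcn and Prrx1). On control day0 Thy1 had a mean of 8.18 and S100a4 of 10.21. In control day8 they were at least 23.5-fold and 101.7-fold lower. In control day8, Thy1 and S100a4 lay under background on 2 of 3 arrays each, and neither passed the test with either agent. The feeder markers named here were picked out after their values were seen. All 10 visceral endoderm markers rose between days and 1 of 10 fell with each agent against control day8. Their summed signal was 13495 to 15285 with NP, 8200 to 11413 with BPA, 8742 to 17210 on control day8 and 174 to 213 on control day0, where Afp, Ttr and Hnf4a lay under background on all arrays. Of 9 measured cardiac muscle markers of 10, 5 fell with each agent against control day8. Their summed signal was 251 to 1514 with NP, 250 to 513 with BPA, 2728 to 4537 on control day8 and 141 to 169 on control day0, where Tnnt2 lay under background.

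The rest of the pathway moved less uniformly. Of a list of 37 other pathway genes, 34 were on the array and 30 passed the filter on low signal. The 4 that failed it were the antagonist Dand5 and the targets Gsc, Mixl1 and Wnt3. Between days 10 of the 30 rose and 6 fell, with a median change of 0.21, while 28.3% of all genes tested rose and 20.5% fell. With BPA 5 rose and 5 fell against control day8 (median -0.04), while 12% of all genes rose and 10.2% fell. With NP 5 rose and 3 fell (median 0.00), while 7.9% of all genes rose and 6.28% fell. The counts describe the list and were not tested against these shares. None of the 30 passed the test in limma between the agents (2 were higher and 1 lower with NP at an unadjusted p under 0.05). Leaving out 1 array changed the counts of the list. The number that fell with BPA was 1 without control day8 replicate 1 or 2, 2 without BPA replicate 2 or 3, 3 without BPA replicate 1 and at most 6. The number that fell with NP was 1 without control day8 replicate 1 or 2 or NP replicate 2 or 3. The number that rose was 3 with BPA without its replicate 1, 3 with NP without its replicate 3, and at most 6 with either agent.

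Among the other ligands, the activin subunit genes Inhba and Inhbb both fell between days. Inhba had means of 4.39 ± 0.43 on control day8 and 8.38 ± 0.40 on control day0, a fall of 3.99 ± 0.65 (adjusted p = 0.000787). Inhbb had 3.82 ± 0.56 and 7.72 ± 0.10, a fall of 3.90 ± 0.31 (adjusted p = 1.61e-05). Inhbb rose by 1.45 ± 0.31 with BPA (adjusted p = 0.0103) and by 1.84 ± 0.31 with NP (adjusted p = 0.00606), but with the mean of its probe sets neither passed (adjusted p = 0.775 and 0.538) and the sign with BPA turned. Inhba stayed low: against control day8 it fell with BPA at least 1.82-fold (2 of 3 arrays under background, adjusted p = 0.0266), a call lost without control day8 replicate 1 or 2 or BPA replicate 1 or 3 (up to 0.0866), and with NP its difference of -0.52 did not pass the test. Against control day0, Inhba was lower with NP by 4.51 ± 0.65 and with BPA at least 28.8-fold, and Inhbb by 2.06 ± 0.31 with NP (not past the test with the mean of its probe sets, adjusted p = 0.0724) and 2.45 ± 0.31 with BPA. So Inhba was low in every day 8 group, unlike Nodal and Gdf3. Whether RNA of feeder cells added to the day 0 signal of Inhba was not tested.

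Pcsk6 encodes a convertase that cleaves the Nodal precursor. Its changes between days and with each agent against control day8 had the same directions as those of Nodal. It had log2 signals of 5.88, 5.53 and 5.40 with NP, 6.11, 6.07 and 6.33 with BPA, 4.21, 4.70 and 4.65 on control day8 and 5.56, 5.74 and 5.82 on control day0. The control day8 arrays were the lowest without overlap. It fell by 1.19 ± 0.17 between days (adjusted p = 0.000357) and rose by 1.65 ± 0.17 with BPA (adjusted p = 0.000397) and 1.09 ± 0.17 with NP (adjusted p = 0.00402). Unlike Nodal, with BPA it lay above every control day0 array, by 0.47 ± 0.17, which did not pass the test in limma (adjusted p = 0.0598). In NP day8 against BPA day8 it differed by -0.57 ± 0.17 without overlap (adjusted p = 0.433), where Nodal differed by 0.11. Within the NP and BPA groups its arrays did not follow the order of Nodal.

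Cfc1 (Cryptic), the other EGF-CFC co-receptor, rose between days, when Tdgf1 fell. Its log2 signals were 6.85, 7.48 and 6.47 with NP, 6.98, 6.61 and 5.78 with BPA, 7.62, 7.82 and 7.59 on control day8 and 4.47, 3.65 and 4.61 on control day0. It rose by 3.44 ± 0.36 between days (10.8-fold, adjusted p = 6.28e-05). Against control day8 it fell by 1.22 ± 0.36 with BPA (adjusted p = 0.0386), a call lost in 8 of 15 settings, among them without any 1 of the control day8 arrays, without BPA replicate 2 or 3 and without NP replicate 1 (up to 0.12). With NP its difference of -0.75 ± 0.36 did not pass the test (adjusted p = 0.209). Against control day0 it was higher by 2.69 ± 0.36 with NP (adjusted p = 0.000642) and by 2.21 ± 0.36 with BPA (adjusted p = 0.00164). Of the 4 other receptor genes measured, 3 rose between days, while 28.3% of all genes tested rose. Besides Cfc1 these were Acvr2a, by 1.25 ± 0.19, and Acvr1b, by 1.03 ± 0.18. Acvr2a and Acvr1b are named here after their values were seen. Acvr2a fell against control day8 by 0.78 ± 0.19 with BPA (adjusted p = 0.0177), a call lost without control day8 replicate 1 or 2 or BPA replicate 2 or 3 (up to 0.0595). With NP it was lower by 0.68 ± 0.19 (adjusted p = 0.0437), a call lost in 11 of 15 settings (without any 1 of the NP or BPA arrays, control day8 replicate 1 or 2 or control day0 replicate 2, among others; adjusted p up to 0.132).

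Of the 3 Smad transducers, Smad3 and Smad4 rose between days, by 1.24 ± 0.15 and 0.52 ± 0.11, named here after their values were seen; with the mean of its probe sets Smad3 did not pass (adjusted p = 0.777). Smad3 was lower than in control day8 by 0.50 ± 0.15 with BPA (adjusted p = 0.0389) and by 0.59 ± 0.15 with NP (adjusted p = 0.0287), and with the mean of its probe sets both changes turned sign and did not pass. Those calls were also lost without any 1 of the control day8 arrays, with BPA in 9 of 15 settings (also without control day0 replicate 1, BPA replicate 1 or 2 or NP replicate 2) and with NP in 7 (also without NP replicate 2 or 3).

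Of the 13 measured inhibitors other than the Lefty genes, 2 rose and 3 fell between days, 3 rose and 1 fell with BPA, and 2 rose and 1 fell with NP. Of all genes tested, 28.3% rose and 20.5% fell between days, 12% and 10.2% with BPA, and 7.9% and 6.28% with NP. Bambi, a membrane pseudoreceptor that dampens TGF-beta family signals, had log2 signals of 8.32, 7.43 and 7.44 with NP, 7.42, 7.77 and 7.25 with BPA, 9.85, 9.53 and 9.55 on control day8 and 6.87, 7.21 and 7.05 on control day0. All control day8 arrays were above every other array. Bambi fell by 2.16 ± 0.24 with BPA (4.48-fold, adjusted p = 0.000569) and by 1.92 ± 0.24 with NP (3.77-fold, adjusted p = 0.00162), so it ran opposite to Lefty1 and Lefty2. Tgif1, a nuclear corepressor of Smad proteins, fell by 1.34 ± 0.15 between days (adjusted p = 8.62e-05). Against control day8 it rose by 0.89 ± 0.15 with BPA (adjusted p = 0.00349) and by 0.99 ± 0.15 with NP (adjusted p = 0.00348). Pmepa1, which sequesters receptor-regulated Smads and is induced by TGF-beta, fell by 1.81 ± 0.23 between days (adjusted p = 0.000193). It was lower than at day 0 by 1.24 ± 0.23 with NP and by 0.98 ± 0.23 with BPA. Against control day8 it rose by 0.83 ± 0.23 with BPA (adjusted p = 0.0308). That call was lost without any 1 of the control day8 arrays or BPA replicate 1 or 3 (up to 0.0944). With NP its difference of 0.57 ± 0.23 did not pass the test (adjusted p = 0.1375). Fstl3, which binds activins, lay under background on all control day0 arrays. It was at least 3.94-fold higher with BPA than at day 0 (adjusted p = 0.0027) and at least 2.84-fold higher with NP (adjusted p = 0.00873). In control day8 its difference from day 0, at least 1.69-fold, did not pass the test (adjusted p = 0.058).

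The endodermal targets Sox17 and Foxa2 behaved unlike the feedback inhibitors. Sox17, a transcription factor of endoderm, had log2 signals of 9.23, 9.31 and 9.14 with NP, 8.77, 8.74 and 8.73 with BPA, 8.93, 8.76 and 8.87 on control day8 and between 2.64 and 3.84 on the control day0 arrays, 2 of which were under background. All day 8 arrays were high. The signal was at least 39.3-fold higher in control day8 than in control day0 (adjusted p = 2.28e-06), and at least 51.1-fold with NP and 36.7-fold with BPA. Foxa2, which also marks endoderm, rose by 3.82 ± 0.35 between days (adjusted p = 2.95e-05) and was higher than at day 0 by 3.95 ± 0.35 with NP and by 3.01 ± 0.35 with BPA. Against control day8 neither gene passed the test with either agent; Sox17 differed by 0.38 with NP and -0.10 with BPA, and Foxa2 by 0.13 and -0.81. One target, Otx2, rose with NP against control day8, by 0.98 ± 0.25 (adjusted p = 0.0301), a call lost without control day8 replicate 1 or 3 or NP replicate 2 or 3 (up to 0.101). With BPA its difference of 0.73 ± 0.25 did not pass the test (adjusted p = 0.0608). Otx2 was above day 0 by 1.72 ± 0.25 with NP (adjusted p = 0.000863) and by 1.48 ± 0.25 with BPA (adjusted p = 0.00182). In control day8 it was above day 0 by 0.75 ± 0.25 (adjusted p = 0.031), a call lost in 6 of 15 settings (up to 0.103).

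**Figure D5:**
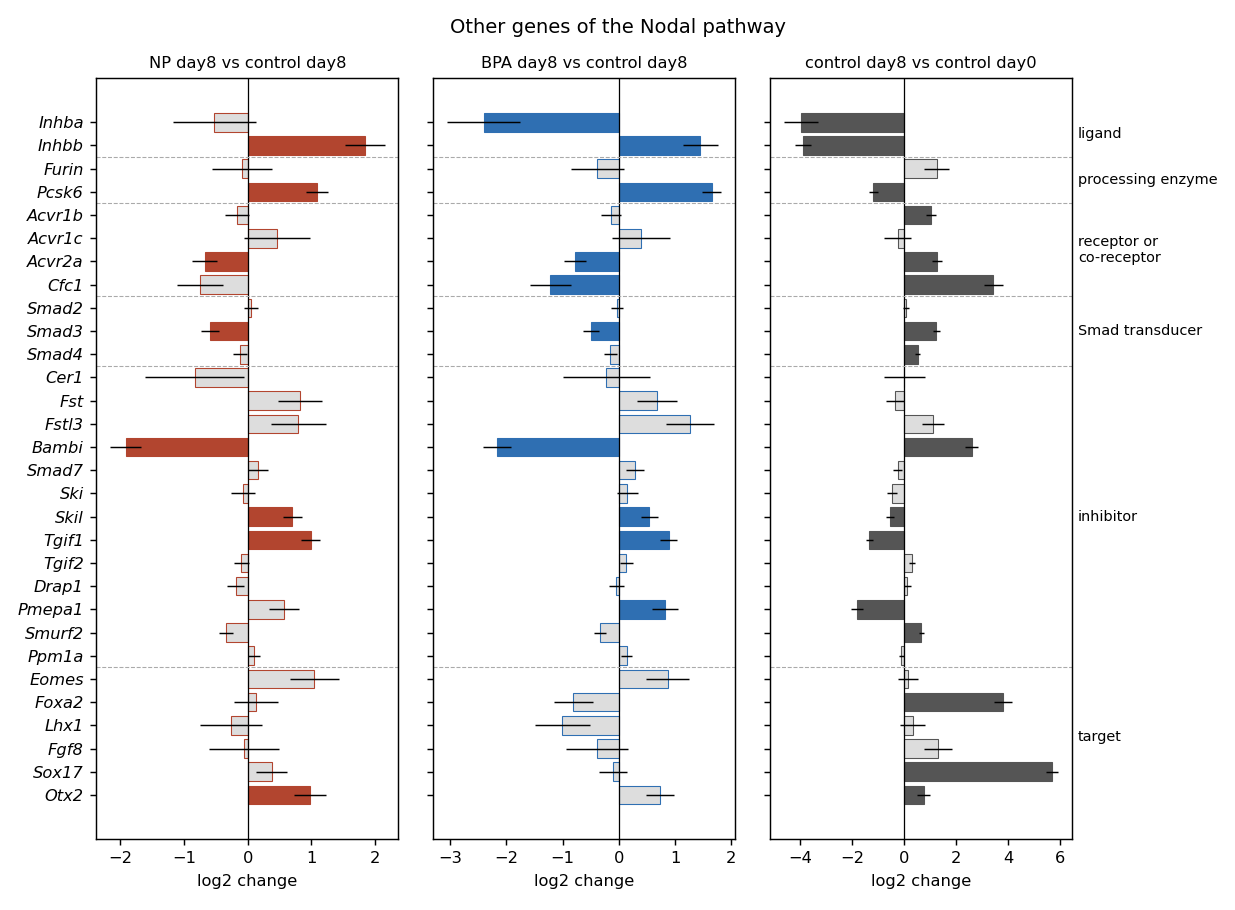
Log2 change ± SE (horizontal axes, which differ in scale) of the 30 other pathway genes measured, grouped by role, in NP day8 against control day8 (left), BPA day8 against control day8 (middle) and control day8 against control day0 (right). Filled bars passed the test; Bambi points down with both agents, Pcsk6 points up, and Sox17 and Foxa2 are past the test in the comparison of days and in neither of the others.

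The genes whose pattern over the 12 arrays was nearest to each member were found by the root mean square (RMS) difference between log2 signals centred on each gene's own mean. Nearest to Tdgf1 were Eras, a Ras-like gene of ES cells, with an RMS difference of 0.19 and Pou5f1 with 0.21. Nodal was nearest to Klf9 (0.24) and Dppa5a (0.24), and Gdf3 to Fbxo15 (0.23) and L1td1 (0.26). Lefty1 was nearest to Stmn2 (0.28) and Slc27a2 (0.31), and Lefty2 to L1td1 (0.25) and Stmn2 (0.26), so Stmn2 was near both Lefty genes. For Acvr2b they were Amotl2 (0.11) and Gtf2ird1 (0.12), and for Foxh1 Grk6 (0.14) and Ndufaf6 (0.15), where small ranges make small differences. Among the 7 genes the closest pair was Lefty1 and Lefty2, with 0.29, followed by Gdf3 and Tdgf1 with 0.39. These are descriptions over arrays that share the 4 groups.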

How the data were processed

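The authors deposited log2 signals per probe set, made with MAS5 per the submitters' processing notes; its version and scaling target are not given in the sources used here. On every array the trimmed mean of the back-transformed signals was 100. The table held 45101 probe sets, 64 of them control probe sets, and 58.2% to 62.2% per array lay above background. Depth does not apply to arrays, and their number limits precision. The array's gene table listed 35890 probe sets, 34958 with 1 gene and 932 with several, and those with several were not used; all 7 members matched RefSeq (GRCm38.p6) by Entrez identifier.

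Deposited values were used with no further scaling and no pseudocount. Probe sets were ranked by mean signal and the upper 60% retained (27023, mean log2 signal above 2.79), with the brightest probe set per gene. Group means were estimated from all arrays in 1 model with limma 3.58.1, R 4.3.3 (8 residual and 1.57 prior degrees of freedom), 2-sided, with Benjamini-Hochberg adjustment over 13067 genes in each of 6 comparisons and a threshold of 0.05. The method was tested on simulated data. Intervals are 95% and not adjusted. Where a group mean lay under background, values under it were set to it and the fold is given as a lower bound. Single-probe-set values were fitted over all probe sets without the filter.

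The members and gene lists were chosen with earlier results of these data known. Other pathway genes are named where they were among the 3 largest called changes per comparison and direction, or the only called gene of their role; the 2 nearest genes per member, Pou5f1 and Nanog are also named. Alternatives changed the pseudocount, filter, scaling, probe set, features tested, variance model, array weights, groups in the fit and pairing, and left out each array in turn. Over all genes tested, same-numbered arrays did not deviate together. Nodal, Gdf3, Tdgf1, Lefty1 and Lefty2 did have the same replicate order in control day8 and NP day8. Motifs and figures were made with Python 3.11.15 and matplotlib 3.10.9.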

Additional observations from a re-analysis of the deposited data

How the results depend on the processing

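Under 26 alternative settings, 1019 of 1092 changes of the 7 genes kept their direction and their side of the threshold, 48 no longer passed it, 10 newly passed it and 15 turned sign; none of the last had passed it. Leaving out 1 array gave 2 to 4 members past the threshold in BPA day8 against control day0, with 2 without any 1 of the control day0 or BPA arrays. In NP day8 against control day0 it gave 2 to 5, with 2 without control day0 replicate 2 or NP replicate 1 or 2. Signs that turned in NP day8 against BPA day8 on leaving out 1 array gave ranges of -0.0345 to 0.365 for Nodal, -0.19 to 0.00709 for Gdf3, -0.0162 to 0.403 for Tdgf1, -0.0274 to 0.27 for Foxh1 and -0.12 to 0.50 for Lefty2. Foxh1 was also -0.0212 there with the mean of probe sets and -0.17 with the most variable one. In BPA day8 against control day0 Foxh1 ranged from -0.255 to 0.0123 on leaving out 1 array. In NP day8 against control day0 it ranged from -0.14 to 0.16, and was -0.15 with quantile normalization, -0.0504 with median centring, -0.13 with the mean of probe sets, -0.28 with the most variable one and -0.0124 with array weights. The cause was not tested. Over all genes tested, same-numbered arrays correlated in their deviations by -0.01 to 0.0809, so the numbers were not taken to pair arrays. Treated arrays were not checked against control day0 in this way, and the 7 genes were not checked on their own. With the replicate block the counts of members past the threshold were 7, 5, 5, 0, 4 and 3 in the 6 comparisons in the order of the report. Without the block they were 7, 5, 5, 0, 4 and 4. Quantile normalization moved the median change of all genes between days to 0.01, beside 0.12 as deposited, a shift small beside every called change of the 7 genes between days. The scaling did cost calls against control day0. With quantile normalization Tdgf1 with BPA and Acvr2b with NP no longer passed, and with median centring Acvr2b with NP did not. With 3 arrays a group, and signals near background for some probe sets, small changes could not be resolved.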
